A study of Mus musculus with 24 samples.

Results

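The J-domain proteins (DNAJ or HSP40 proteins) are the co-chaperones that bring substrates to HSP70. The family was taken as every gene whose array symbol is Dnaja, Dnajb or Dnajc followed by a number, with the probe set of the highest mean standing for each gene and probe sets of several symbols left out. This gave 45 genes of 19938 on the array, 4 of subfamily A, 13 of subfamily B and 28 of subfamily C. Of these, 41 lay above the low-level filter (a mean log2 value of 5.52, the 30th percentile of all genes) and were tested. Dnajb7, Dnajc22, Dnajc5b and Dnajc5g fell below it, with mean log2 values of 4.10, 5.04, 4.65 and 3.94.

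Each family member carries a J domain, which binds HSP70 and triggers the ATP hydrolysis that closes HSP70 on its substrate. Subfamily A proteins also have a glycine- and phenylalanine-rich stretch and a zinc-binding region, subfamily B proteins have the glycine- and phenylalanine-rich stretch, and subfamily C proteins share only the J domain. The members work in different compartments. In the cytosol they fold new and damaged proteins, in the endoplasmic reticulum (ER) they serve the HSP70 called BiP, in mitochondria they drive protein import, and in nerve endings they maintain release machinery and strip clathrin from vesicles. Some, with Dnajb1 the best known, are targets of heat shock factor 1 (HSF1), the transcription factor that answers protein damage and warmth.

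The data are a circadian time course of the suprachiasmatic nucleus (SCN), the hypothalamic nucleus that holds the master clock of mammals. C57/BL6 mice had lived in a light-dark cycle and were kept in constant darkness at collection, every 2 h from CT 18 to CT 64 (CT, hours of circadian time). The second cycle (CT 42 to CT 64, 12 arrays) and the first cycle (CT 18 to CT 40, 12 arrays) hold the same 12 circadian times, and no genotype or treatment differs between them. Each time is 1 array of RNA pooled in equal parts from 3 mice, and the labels give neither age nor sex. With 1 array per time, the spread around a fitted cosine was the error, so p-values measure the scatter of pools around that curve. The arrays are grouped below in windows of 6: early subjective day (CT 0 to 4), late subjective day (CT 6 to 10), early subjective night (CT 12 to 16) and late subjective night (CT 18 to 22), each from both cycles.

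All 12 SCN neuron markers examined (Avp, Vip, Prok2, Rgs16 and others) lay above the filter, with a mean level of 8.04 to 8.86 in the second cycle and 8.32 to 8.88 in the first. The arrays at CT 40, CT 62 and CT 64 stood apart. Their interquartile ranges were 2.48 to 2.67, against 2.72 to 2.90 on the other 21 arrays, and the mean of 1190 olfactory and vomeronasal receptor genes, an index of array background, was 0.16 to 0.34 above its centre, against -0.15 to 0.04. These 3 arrays are among the 6 of the early subjective night. An early-night level, high or low, therefore cannot be fully told apart from their array background. Anterior pituitary markers (6 genes, Gh and Prl among them) averaged 6.34 to 8.33 at CT 18 to CT 26 and 5.20 to 6.21 at every other time. Both features touch results below, and calls that end without these arrays are named there.

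There were 5 J-domain genes with a 24-h rhythm, and they formed a late-night set and a morning set. The cytosolic HSP70 partners Dnajb1, Dnaja1 and Dnaja4 peaked between 18.9 and 21.4 h of circadian time, and the synaptic vesicle proteins Dnajc6 and Dnajc5 peaked at 2.80 and 3.02 h. The call required an adjusted p under 0.05 in limma's moderated F test of a 24-h cosine and sine, adjusted over all 13956 genes tested. It was met by 5 of 41 J-domain genes (12.2%), beside 7.65% of all genes. At an unadjusted p under 0.05 it was 15 of 41 (36.6%), beside 27.5% of all genes. The median amplitude, the distance on the log2 scale from the mean to the peak of the fitted cosine, was 0.08 over the 41 members and 0.07 over all genes. In bulk tissue, fewer cells of a type and less RNA per cell cannot be told apart.

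**Figure D1:**
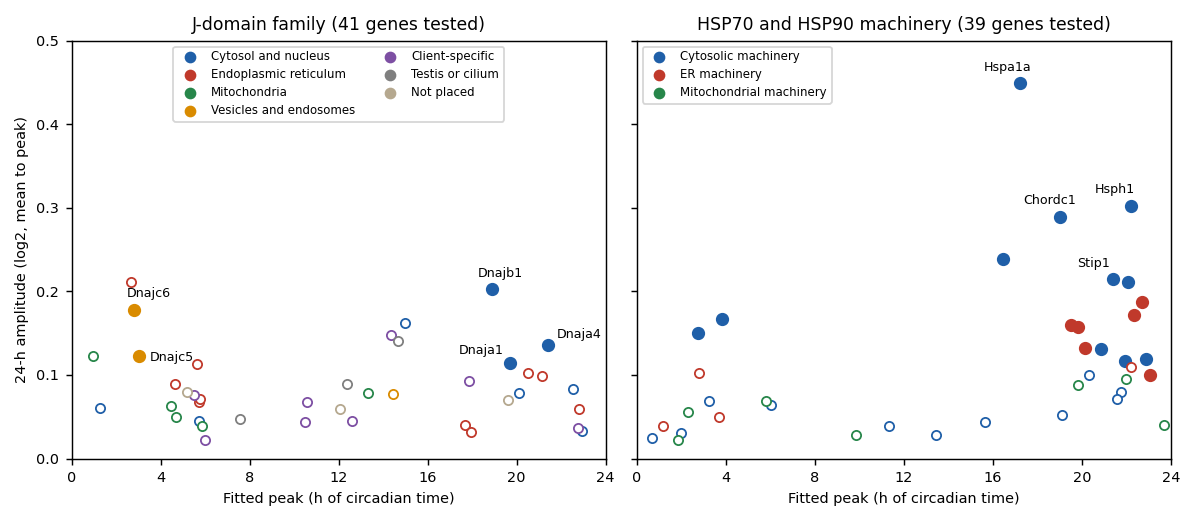
Fitted 24-h amplitude (log2 scale) against the circadian time of the fitted peak (h) for the 41 tested J-domain genes, with the called genes marked. Dnajb1 at 18.9 h and an amplitude of 0.20 leads the late-night set, and Dnajc6 and Dnajc5 near 3 h form the morning set.

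Dnajb1, the stress-inducible partner of cytosolic HSP70, rose at night. Its lowest, median and highest log2 values were 6.62, 6.85 and 6.95 in early subjective day, 6.70, 6.75 and 6.81 in late day, 6.65, 6.95 and 7.26 in early night, and 6.94, 7.11 and 7.17 in late night. The late-night and late-day arrays did not overlap. The amplitude was 0.20 ± 0.03 (SE) with a peak at 18.9 ± 0.62 h, a fitted peak 1.32 times the trough, and an adjusted p of 0.00149 (limma). Fitted to each cycle alone, it was 0.19 at 19.5 h in the second cycle and 0.22 at 18.4 h in the first. Dnajb1 was the only member called at an adjusted p under 0.01, and it was called under each of the 37 alternative settings run.

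Dnaja1 and Dnaja4, the zinc-binding HSP70 partners, peaked in the same part of the night with smaller amplitudes. Dnaja4 had lowest, median and highest values of 6.998, 7.103 and 7.250 in early day, 6.80, 7.05 and 7.13 in late day, 6.77, 7.05 and 7.24 in early night, and 7.12, 7.25 and 7.42 in late night. Its late-night arrays were high as a set and overlapped the late-day arrays only at their edges. The amplitude of Dnaja4 was 0.14 ± 0.03 with a peak at 21.4 ± 0.92 h, and the adjusted p was 0.0299 (limma). It was 0.0527 without CT 22, 0.0587 without CT 32 and 0.0661 without CT 46.

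Dnaja1, the abundant farnesylated co-chaperone of cytosolic HSP70, had lowest, median and highest values of 10.90, 11.02 and 11.10 in early day, 10.70, 10.97 and 11.04 in late day, 10.85, 10.98 and 11.20 in early night, and 10.98, 11.14 and 11.24 in late night. The windows overlapped. Its amplitude was 0.11 ± 0.03 with a peak at 19.7 ± 0.996 h and an adjusted p of 0.0423 (limma), close to the threshold. Leaving out 1 array at a time ended the call in 16 of 24 cases, with adjusted p up to 0.0839 (without CT 54). The call held without CT 26, 30, 32, 34, 40, 44, 56 or 62. A second Dnaja1 probe set peaked at 17.9 h with an amplitude of 0.08. In a limma fit over all probe sets its adjusted p was 0.190 and that of the probe set used was 0.0882. A further probe set, shared with the symbol Mir207 and so left out, had another phase. Its fitted peak was at 2.72 h with an amplitude of 0.07 and an adjusted p of 0.352 in the same limma fit. RefSeq lists a Dnaja1 pseudogene, and signal from such a copy cannot be told apart here.

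The late-night peaks of these genes lie in the hours when the pituitary markers were high, and that list's mean peaked at 21.6 h with an amplitude of 0.52, with 0 of its 4 tested genes called. Without CT 18 to CT 26, limma's adjusted p was 0.0209 for Dnajb1, whose amplitude was 0.19, against 0.174 for Dnaja4 and 0.161 for Dnaja1. Without CT 40, CT 62 and CT 64, Dnajb1 and Dnaja4 kept their call and Dnaja1 had 0.0625. Only Dnajb1 passed in both.

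The other general partners of the cytosol and nucleus did not pass the test. Of the 9, Dnajb4, a close relative of Dnajb1, had an amplitude of 0.08 and a fitted peak at 20.1 h (limma adjusted p = 0.111). Dnajb2, a neuronal co-chaperone that binds ubiquitin, had a fitted peak at 22.5 h (0.197), and Dnaja2 one at 22.9 h (0.612). Dnajc7, which links HSP70 with HSP90, and Dnajb5 had fitted peaks at 1.26 and 5.73 h. Dnajb6, known for holding back polyglutamine aggregates, stood off with an amplitude of 0.16 at 14.96 h and an adjusted p of 0.155 (limma). With the called Dnajb1, Dnaja1 and Dnaja4 counted in, 6 of the 9 genes had their fitted peak between 18 and 24 h (66.7%), beside 17.0% of all genes. Of these, Dnajb2 and Dnaja2 had peaks with an SE of 1.52 and 2.95 h.

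**Figure D2:**
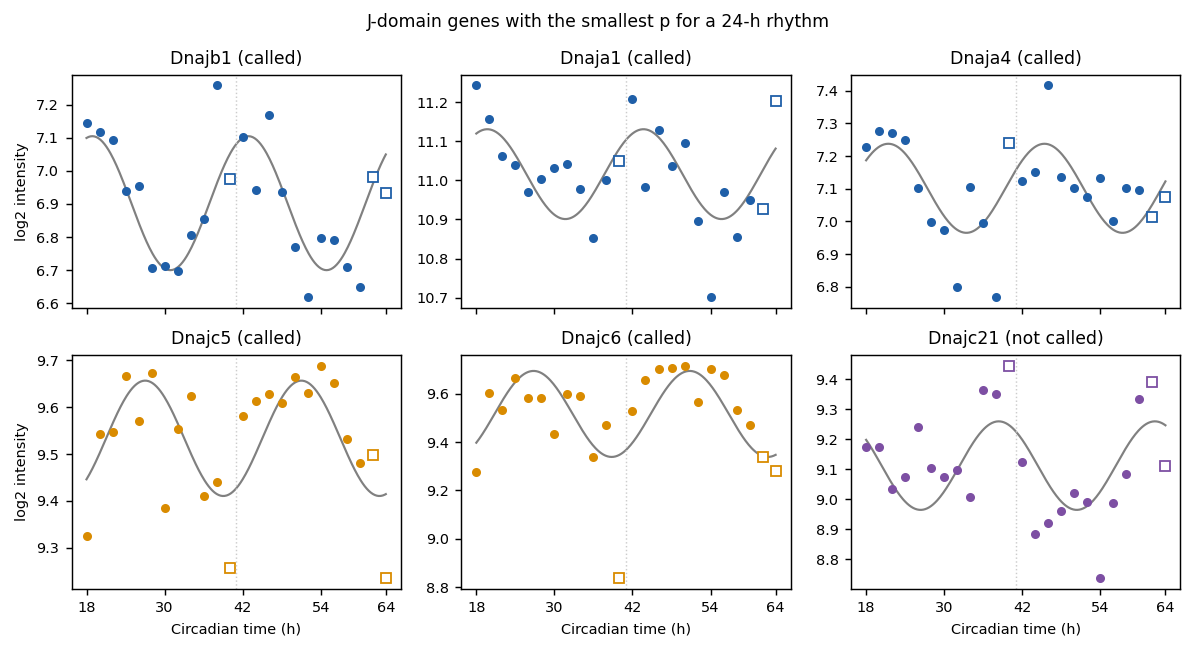
Log2 level of Dnajb1, Dnaja1, Dnaja4, Dnajc5, Dnajc6 and Dnajc21 on each of the 24 arrays against hours of circadian time, with the fitted 24-h cosine, a dotted line between the cycles, and open squares for CT 40, CT 62 and CT 64. The 6 highest values of Dnajb1 are those at CT 18, 20, 22, 38, 42 and 46, and Dnajc6 has its lowest value, 8.84, at CT 40.

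Promoter sequences were examined because several members are known heat shock or ER stress genes. RefSeq windows (GRCm38.p6, 250 bases before to 50 after the start of transcription) were at hand for 37 of the 45 members. The heat shock element was searched on both strands as GAANNTTCNNGAA or TTCNNGAANNTTC. It was in 1 of 37 members (2.70%), Dnajb6, and in 0.662% of all genes with a window (0.603% of all 32851 windows). In Dnajb1, Dnaja1 and Dnaja4 these letters were not in the window. Nor were they in that of Hspa1a, the stress-inducible HSP70, while those of Chordc1 and Hsph1, chaperone partners described below, held them. So did those of the mitochondrial chaperone genes Hspd1 and Hspe1, neither of which was called as rhythmic (limma adjusted p = 0.0728 and 0.0590). The windows of Stip1, Ahsa1 and Hspa2, which were called, did not. The search takes only exact letters in a short window. A missing match therefore does not show that a gene lacks a heat shock element. Shorter pairs of units, GAANNTTC or TTCNNGAA (a search added after seeing the data, which overlaps the full element), were in 7 of 37 members (18.9%) and 17.0% of all genes with a window. Dnaja4 holds such a pair at 90 and at 52 bases before its start. Dnaja1 holds 1 at 124 bases before a start that lies upstream of the one printed here.
The upstream part of the windows is shown for the late-night members, and for Dnajc3, which is described with the ER genes. The plus-strand coordinates are chr8:83607925-83608174 for Dnajb1, chr4:40722672-40722921 for Dnaja1, chr9:54699309-54699558 for Dnaja4 and chr14:118937682-118937931 for Dnajc3. Capitals mark CCAAT boxes on either strand in Dnajb1 and Dnaja1, the unit pairs in Dnaja4, and the ER stress element with a CCAAT box in Dnajc3.
Dnajb1: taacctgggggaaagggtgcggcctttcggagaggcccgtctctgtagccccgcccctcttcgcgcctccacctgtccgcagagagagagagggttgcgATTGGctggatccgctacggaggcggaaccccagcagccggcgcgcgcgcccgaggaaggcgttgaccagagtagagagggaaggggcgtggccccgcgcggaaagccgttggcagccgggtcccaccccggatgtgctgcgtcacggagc
Dnaja1: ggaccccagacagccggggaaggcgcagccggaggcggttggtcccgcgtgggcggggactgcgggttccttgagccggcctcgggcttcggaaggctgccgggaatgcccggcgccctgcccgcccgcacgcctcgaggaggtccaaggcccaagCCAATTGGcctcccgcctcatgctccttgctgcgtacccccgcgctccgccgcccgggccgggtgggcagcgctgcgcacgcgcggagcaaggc
Dnaja4: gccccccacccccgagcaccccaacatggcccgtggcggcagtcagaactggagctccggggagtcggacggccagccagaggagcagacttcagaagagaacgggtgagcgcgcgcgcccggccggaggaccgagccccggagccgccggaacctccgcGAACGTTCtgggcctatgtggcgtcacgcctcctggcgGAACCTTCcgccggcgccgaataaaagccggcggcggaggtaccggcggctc
Dnajc3: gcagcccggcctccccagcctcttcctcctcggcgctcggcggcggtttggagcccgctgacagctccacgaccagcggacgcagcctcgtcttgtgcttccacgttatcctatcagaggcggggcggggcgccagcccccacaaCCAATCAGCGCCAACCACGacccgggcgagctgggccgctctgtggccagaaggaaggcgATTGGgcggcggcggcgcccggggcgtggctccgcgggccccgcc
The CCAAT box, CCAAT on either strand, was in 15 of 37 members (40.5%) and 41.1% of all genes with a window. The E-box CACGTG, the site of the clock factors CLOCK and ARNTL, was in 4 of 37 members (10.8%) and 8.09% of all genes with a window. The 4 were Dnajb9, Dnajc1, Dnajc16 and Dnajc8. These matches are descriptions of sequence and were not tested against expression.

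The vesicle genes Dnajc6 and Dnajc5 had the other phase, high in the morning and low early at night. Dnajc6, the neuronal auxilin that recruits HSP70 to strip clathrin from vesicles, had lowest, median and highest values of 9.57, 9.62 and 9.72 in early day, 9.43, 9.60 and 9.70 in late day, 8.84, 9.34 and 9.47 in early night, and 9.28, 9.57 and 9.70 in late night. Early-day and early-night arrays did not overlap. The amplitude was 0.18 ± 0.04, the peak was at 2.80 ± 0.92 h and the adjusted p was 0.0289 (limma), with 0.17 at 2.19 h in the second cycle and 0.19 at 3.32 h in the first.

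Dnajc5, the cysteine string protein that keeps synaptic vesicle fusion proteins folded, had lowest, median and highest values of 9.57, 9.65 and 9.67 in early day, 9.38, 9.59 and 9.69 in late day, 9.24, 9.42 and 9.50 in early night, and 9.32, 9.56 and 9.63 in late night. Here too the early-day and early-night arrays did not overlap. The amplitude was 0.12 ± 0.03, the peak was at 3.02 ± 0.96 h and the adjusted p was 0.0349 (limma). The amplitude was 0.12 in the second cycle and 0.12 in the first.

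Both calls ended without the narrow arrays, all of which lie in the early night, where these genes were low. Without CT 40, CT 62 and CT 64, Dnajc6 had an amplitude of 0.11 and an adjusted p of 0.119 (limma), and Dnajc5 had 0.09 and 0.149. With a covariate for array background, Dnajc6 had an amplitude of 0.09 (adjusted p = 0.230, limma) and Dnajc5 one of 0.09 (0.199). Their calls also ended without CT 18 to CT 26, at adjusted p of 0.0714 for Dnajc6 and 0.0907 for Dnajc5 (limma), while the amplitudes were 0.18 and 0.12. Of single arrays, CT 50 and CT 64 ended the call of Dnajc6 (0.0504 and 0.0528), and CT 18, 24, 28, 36, 40, 50, 54 or 64 that of Dnajc5 (up to 0.0729). The SCN marker list peaked nearby, at 3.29 h with an amplitude of 0.17, and 7 of its 12 genes were called. Its part in these results was not tested. The third vesicle gene, Dnajc13, which acts on endosomes, had an amplitude of 0.08 at 14.4 h and an adjusted p of 0.367 (limma). Its probe sets disagreed in phase. Of 15, 9 had a fitted peak between 0 and 6 h, among them the 3 with an unadjusted p under 0.05, and 4 had one between 12 and 18 h. Gak, the broadly expressed auxilin that lies outside the symbol rule, had an amplitude of 0.15 at 4.44 h (limma adjusted p = 0.0427), a call that ended in 14 of 24 fits without 1 array, with an adjusted p up to 0.0868 (without CT 64). It had an amplitude of 0.08 (0.240) without CT 40, CT 62 and CT 64, and 0.18 (0.0584) without CT 18 to CT 26.

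No ER member was called among 10, and 4 (40%) had an unadjusted p under 0.05, beside 27.5% of all genes. Dnajb11, a soluble partner of BiP, had an amplitude of 0.10 and a fitted peak at 20.5 h (limma adjusted p = 0.0781). Dnajc3, a BiP partner also known as an inhibitor of the stress kinase PERK, had 0.10 at 21.1 h (0.0887). Its values were 9.52 to 9.72 in early day, 9.49 to 9.70 in late day, 9.41 to 9.75 in early night and 9.64 to 9.82 in late night. Dnajc3 was called without CT 40, CT 62 and CT 64, at an adjusted p of 0.0306 (limma) and a peak of 19.5 h. Over the 13 settings other than single arrays, its adjusted p was up to 0.345 (limma). Dnajc3 was not called without CT 18 to CT 26 or with the background covariate. It is the 1 member of 37 (2.70%) whose window holds the ER stress element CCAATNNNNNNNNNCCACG (printed above, starting 105 bases before the start). The element was in 0.137% of all genes with a window.

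Dnajc18, a membrane-anchored ER member, had a fitted amplitude of 0.21 at 2.65 h with all arrays, and an adjusted p of 0.0801 (limma). Its value at CT 40 was 7.72, and its next lowest was 8.70, at CT 62. Early-day arrays lay between 8.96 and 9.10. Without CT 40 alone, Dnajc18 was called with an amplitude of 0.13 and an adjusted p of 0.0200 (limma). Without all 3 narrow arrays its amplitude was 0.10 (0.0959), and with the background covariate it was 0.07 (0.532). Dnajb9, which guides misfolded ER proteins to degradation, also had its lowest value at CT 40, 8.46, and an adjusted p of 0.274 (limma). With the background covariate it was called, at 0.0454 with a peak at 10.3 h. Dnajb9 was not called without CT 40, CT 62 and CT 64, nor without CT 18 to CT 26.

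**Figure D3:**
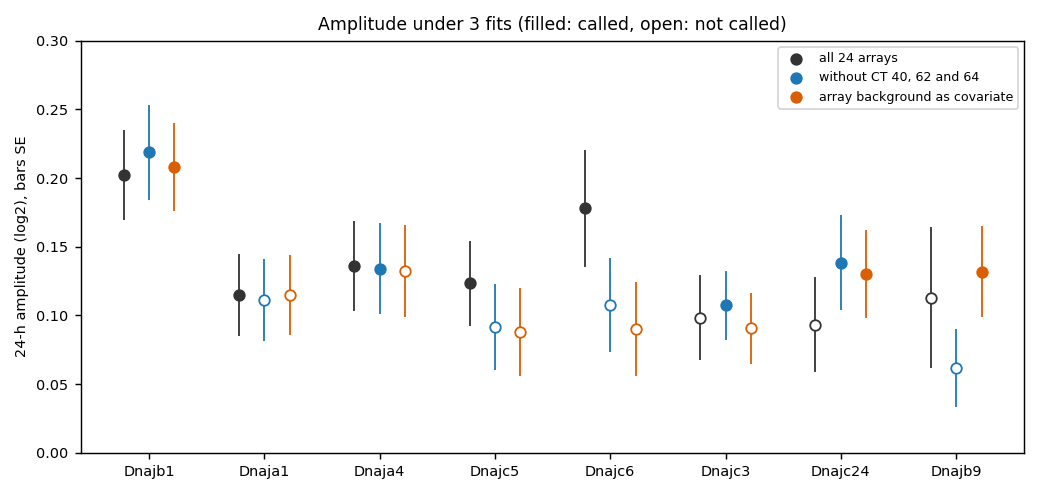
Fitted amplitude (bars, SE) of 8 J-domain genes in 3 fits: all arrays, all but CT 40, CT 62 and CT 64, and a covariate for array background. Dnajb1 passed the threshold under each of the 3, Dnaja4 under 2, and Dnajc5 and Dnajc6 only with all arrays.

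No mitochondrial member was called among 5. The smallest p was that of Dnajc19, a subunit of the import motor, with an amplitude of 0.08 at 13.3 h and an adjusted p of 0.180 (limma). Dnajc15, its relative at the same motor, had 0.12 at 0.972 h (0.275), and Dnaja3, the matrix co-chaperone, had 0.06 at 4.49 h (0.300).

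Of 8 members with particular clients, 0 were called and 2 (25.0%) had an unadjusted p under 0.05, beside 27.5% of all genes. Dnajc21, which takes part in ribosome maturation, missed the threshold narrowly, with an amplitude of 0.15 at 14.4 h and an adjusted p of 0.0505 (limma). Its lowest, median and highest values were 8.96, 9.05 and 9.24 in early day, 8.74, 9.04 and 9.10 in late day, 9.11, 9.36 and 9.45 in early night, and 8.88, 9.08 and 9.17 in late night. Early-night arrays lay above all late-day arrays. Leaving out 1 array brought it past the threshold in 5 of 24 cases, and its adjusted p without CT 18 to CT 26 was 0.0380 (limma). Dnajc21 was not called without CT 40, CT 62 and CT 64 or with the background covariate. Its highest and second highest values were at CT 40 and CT 62, and its adjusted p without CT 62 was 0.103 (limma). Over the 13 settings other than single arrays, its adjusted p was up to 0.313 (limma) and its amplitude down to 0.10.

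Dnajc24, needed to make the diphthamide of elongation factor EF2, had an amplitude of 0.09 at 17.8 h and an adjusted p of 0.156 (limma). Without CT 40, CT 62 and CT 64 it was called at 0.0435 with a peak at 16.9 h, and with the background covariate at 0.0440 and 16.2 h. Dnajc24 was highest at CT 18 and next highest at CT 20, and it was not called without CT 18 to CT 26. The splicing-linked Dnajc8 had the smallest amplitude of the family, 0.02. Among 3 tested genes known from testis or cilia, Dnajb8 had the smallest p, with a fitted peak at 12.4 h (limma adjusted p = 0.213). Among the 3 tested genes given no location, this was Dnajc4, at 5.18 h (0.165).

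By subfamily, 2 of 4 A genes, 1 of 12 B genes and 2 of 25 C genes were called (50%, 8.33% and 8%, beside 7.65% of all genes). The median amplitudes were 0.09, 0.09 and 0.07. By location, the calls were 3 of 9 in cytosol and nucleus (33.3%), 2 of 3 in vesicles and endosomes (66.7%), and 0 in the other classes. These counts are small and no difference between classes was tested, so they are given as a description. Fitted peaks fell between 0 and 6 h in 15 of the 41 genes (36.6%, beside 38.2% of all genes), between 6 and 12 h in 4 (9.76%, beside 17.2%), between 12 and 18 h in 11 (26.8%, beside 27.6%) and between 18 and 24 h in 11 (26.8%, beside 17.0%).

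**Figure D4:**
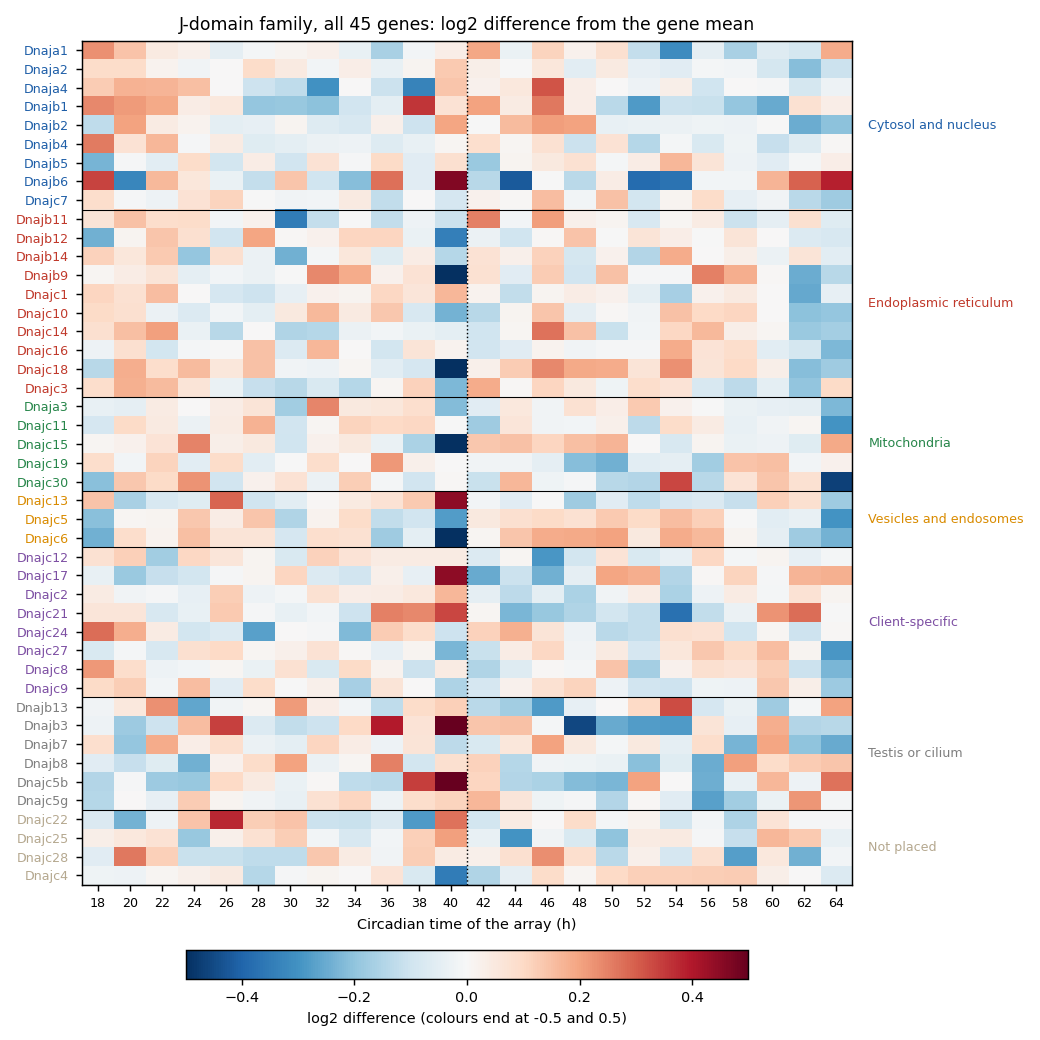
Log2 level minus the gene's mean on the 24 arrays (columns, hours of circadian time) for all 45 J-domain genes (rows, grouped by location). The column at CT 40 stands out, with the lowest or highest value of 17 of the 41 tested genes.

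The lowest or highest of a gene's 24 values was at CT 40 in 17 of 41 members (41.5%), beside 45.1% of all genes. At CT 64 it was 10 of 41 (24.4%), beside 12.5% of all genes. In all 10 of these the value was the lowest.

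No member passed the test for a change between cycles. The pituitary-rich arrays, CT 18 to CT 26, all lie in the first cycle. Of the narrow arrays, CT 40 lies in the first cycle and CT 62 and CT 64 in the second. The part of these arrays in the comparison was not tested. The cycle term, the second minus the first beside the 24-h terms, was called for 0 of 41 members (limma, 0.00% of all genes), and 6 of 41 had an unadjusted p under 0.05 (14.6%), beside 8.71% of all genes. The smallest adjusted p was 0.490, for Dnajc21, which averaged 9.05 ± 0.18 in the second cycle and 9.18 ± 0.14 in the first (SD, n = 12 each), a difference of -0.13 ± 0.05 (SE, limma). Dnajb3, a testis gene, differed by -0.18 ± 0.08 (0.521, limma) and Dnaja2, a cytosolic HSP70 partner, by -0.08 ± 0.03 (0.535, limma). Paired by circadian time (12 pairs, chosen after seeing the data), 0 of 41 members and 0 of all genes were called, and 6 members had an unadjusted p under 0.05 (14.6%), beside 10.5% of all genes. Dnajc21 was lower in the second cycle in 10 of 12 pairs, with an adjusted p of 0.343 (limma). The second-cycle level was below the first-cycle level in 25 of 41 members (61.0%), beside 47.8% of all genes.

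The rhythms themselves showed no change between cycles that passed. The interaction test was called for 0 of 41 members (limma, 0.00% of all genes), and 0 had an unadjusted p under 0.05, beside 2.42% of all genes. The 3 with the smallest p were Dnajc14, Dnajc1 and Dnajb8, at unadjusted p of 0.0574, 0.0842 and 0.0895 in limma's test across all genes. For the called genes, Dnaja4 had an amplitude of 0.09 at 22.2 h in the second cycle and 0.19 at 21.04 h in the first, and Dnaja1 had 0.15 at 19.4 h in the second cycle and 0.08 at 20.2 h in the first.

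A 12-h component was tested because 2-h sampling can resolve it. It was called for 0 of 41 members (limma), beside 0.0358% of all genes, and 11 had an unadjusted p under 0.05 (26.8%), beside 21.9% of all genes. The 3 with the smallest p were Dnajc10, which reduces disulfide bonds in the ER, at an amplitude of 0.10 (limma adjusted p = 0.119), Dnajc21 at 0.12 (0.125) and Dnajc17, a splicing-linked member, at 0.13 (0.130).

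Of the HSP70 and HSP90 genes that J-domain proteins serve, with their partners, 17 of 39 tested were called (43.6%), beside 7.65% of all genes. The lists were chosen with earlier results of these data known. Of the 17, 13 had their peak between 18 and 24 h, as did Dnajb1, Dnaja1 and Dnaja4. In the cytosol 11 of 22 were called. Hspa1a, the stress-inducible HSP70, had an amplitude of 0.45 ± 0.05 at 17.2 h (limma adjusted p = 1.7e-05), and its early-night values of 7.37 to 8.04 lay above its late-day values of 6.77 to 7.19.

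Chordc1 and Ahsa1, partners of HSP90, peaked at 18.99 and 22.04 h with amplitudes of 0.29 and 0.21. Hsph1, which reloads HSP70 with ATP, had 0.30 at 22.2 h, Stip1, which joins HSP70 to HSP90, had 0.21 at 21.4 h, and Hspa2 had 0.24 at 16.4 h. Hspa8, the constitutive HSP70 of the cytosol, had 0.12 ± 0.02 at 22.9 h (limma adjusted p = 0.0121). Its late-night values, 12.35 to 12.43, lay above its late-day values, 12.16 to 12.26. The 6 cytosolic genes named before it and Hspa8 were called both without CT 40, CT 62 and CT 64 and without CT 18 to CT 26. Of the other called cytosolic genes, Hspa12a (0.17 at 3.82 h) and Stub1 (0.15 at 2.74 h) lost their call without CT 40, CT 62 and CT 64. Hspa4l (0.12 at 21.9 h) and St13 (0.13 at 20.8 h) lost theirs without CT 18 to CT 26.

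In the ER list 6 of 10 were called, each peaking between 18 and 24 h, while 0 of 10 ER members of the J-domain family were. They were Calr, a lectin chaperone, at 0.19 and 22.7 h, Manf at 0.16 and 19.5 h, Sdf2l1 at 0.16 and 19.8 h, Pdia6 at 0.17 and 22.3 h, Hsp90b1 at 0.10 and 23.04 h and Pdia4 at 0.13 and 20.1 h. Leaving out 1 array ended the call of Hsp90b1 in 8 of 24 cases and that of Pdia4 in 15. Without CT 18 to CT 26, 2 of 10 were called, Calr (0.0209) and Sdf2l1 (0.0443), while Hsp90b1, Manf, Pdia4 and Pdia6 had adjusted p of 0.0786, 0.108, 0.186 and 0.121 (limma). Pdia4 had 0.0527 without CT 40, CT 62 and CT 64. Hspa5, which encodes BiP, had 0.11 at 22.2 h (limma adjusted p = 0.140). In the mitochondrial list 0 of 7 were called, and Hspa9, the mitochondrial HSP70, had 0.03 (0.710). As marks of phase, Arntl peaked at 21.8 h and Per2 at 9.53 h. Whether the family differs from these lists was not tested.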

How the data were processed

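As deposited, values are log2 intensities per probe set of Affymetrix MoGene 1.0 ST arrays, which the authors normalised by RMA 1.3.1.187 in Affymetrix Expression Console, per the submitters' processing notes. The genome build was not given in the sources used here, and promoter windows are RefSeq's. Per the labels' protocols, RNA of 3 mice was pooled per array, amplified and labelled. Of 35556 probe sets, 21789 had 1 gene symbol.

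Genes with a mean under the 30th percentile were left out, and 13956 were fitted with limma 3.58.1 in R 4.3.3 (lmFit, eBayes) on cosine and sine terms over 24 arrays, with 21 residual degrees of freedom, Benjamini-Hochberg adjustment and a threshold of 0.05. Errors of amplitude and peak are delta-method SE. Full values are given for called members, for the smallest p of each location class without a call, and for the 3 smallest p of each test without a call. The members, lists and locations were chosen with earlier results of these data known. Dnajc22 and 7 other members had no promoter window. The scripts were tested on simulated data. The number of arrays limits the precision. Promoters were searched with Python 3.11.15 and pandas 2.3.3, and figures drawn with matplotlib 3.10.9.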

Additional observations from a re-analysis of the deposited data

How the results depend on the processing

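The count of 5 rhythmic J-domain genes (7.65% of all genes called) moved in these settings, each given with the share of all genes called there. It was 3 with no low-level filter (4.002%), 9 with array weights (11.2%), 3 with the array background covariate (3.83%), 13 with the oligodendrocyte covariate (24.8%) and 1 at a threshold of 0.01 (1.22%). Without CT 18 to CT 26, an alternative chosen after seeing the data, it was 2 (4.76%). The machinery count of 17 was 7 at a threshold of 0.01 and 11 without CT 18 to CT 26. Leaving out 1 array at a time gave 2 to 6 J-domain genes (5.04% to 10.3% of all genes) and 13 to 18 machinery genes. The J-domain count was 3 without CT 18, 22, 24, 28, 36, 46, 54 or 64 and 2 without CT 50. The other settings (a 50th percentile filter, the mean of probe sets, quantile normalisation, median centring, a trended and robust prior, a linear time covariate, and leaving out CT 40, CT 62 and CT 64) gave 4 to 6 (4.87% to 12.4% of all genes). The members were not always the same. Of the 4 called without CT 40, CT 62 and CT 64, only 2, Dnajb1 and Dnaja4, were among the 5, and Dnajc3 and Dnajc24 were new. The counts for cycle, rhythm change and the 12-h rhythm were 0 in every setting run. For the 12 J-domain genes with the smallest p, 371 of 444 values kept their side of the threshold, 49 lost a call, 24 gained one and 0 reversed direction. Only called genes could lose a call, or count as reversed by a peak shift of over 6 h. In the 24 fits without 1 array, Dnajb1 lost 0 calls, Dnajc6 2, Dnaja4 3, Dnajc5 8 and Dnaja1 16. In the 13 other settings they lost 0, 4, 3, 6 and 7. For 22 machinery and clock genes, 719 of 814 kept their side, 94 lost a call and 1 gained one. The cause of these changes was not tested. The labels give no replicate numbers, and the fit that pairs the cycles by circadian time as a block, chosen after seeing the data, called 0 members between cycles, as did the unpaired fit. With 1 pool per time, amplitudes near 0.1 lie close to the threshold.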

Other observations

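Several members were measured by more than the probe set used. The family had 68 probe sets, 7 of them with several symbols, and 3 members had more than 1 probe set of their own symbol. Dnajc13 had 15, with mean log2 values from 6.36 to 9.04, and the lowest adjusted p among them was 0.212 (limma). The 2 Dnajc3 probe sets held identical values. For Dnajb6, the probe set used had a mean of 7.15 and a fitted peak at 14.96 h. Another 4 probe sets shared with a second symbol had means of 9.24 to 9.46 and fitted peaks between 0.326 and 2.15 h, and none was called. Signal of Dnajb6 and of its copy cannot be told apart in those.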
